A study of Rattus norvegicus with 16 samples.

Results

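The comparison described here sets the stable clone 4-18 directly against the stable clone 3-44, both derived from rat hepatoma H35 cells after silencing of Pdrg1. Its members are the 8 arrays of the 2 clones, 4 biological replicates of each, out of the 16 arrays of the study. The other 8 arrays, 4 of the negative control clone CN-10 and 4 of the transfected pool shRNA3T, did not enter the fit and are quoted only as levels. H35 is an established rat hepatoma line, and all 4 groups had been transfected with a short hairpin plasmid and selected with the antibiotic G418. The clones 4-18, 3-44 and CN-10 shared a selection of 4 weeks, at 1.8 mg/ml and then at 4 mg/ml, whereas shRNA3T had been selected for 2 weeks at 1.8 mg/ml.

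Clone 4-18 carries hairpin shRNA4 and clone 3-44 carries hairpin shRNA3, each directed at Pdrg1. CN-10 carries a negative control hairpin, and shRNA3T is a pool of H35 cells transfected transiently with shRNA3 and enriched in transfected cells, without cloning. Each stable group is 1 clone, so what belongs to the hairpin and what belongs to the founder cell cannot be told apart, and the replicates measure the spread within a clone. Every group was hybridized on a separate slide, that of 4-18 being scanned on a different day from the rest, so slide and clone cannot be told apart either.

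PDRG1 is a small protein that binds the catalytic subunits of methionine adenosyltransferase, the enzyme that makes the methyl donor S-adenosylmethionine. It is also found with the prefoldin-like complexes that assist the folding and assembly of other protein complexes. Hepatoma lines such as H35 keep part of the hepatocyte programme, which includes secreted plasma proteins, lipid carriers, gluconeogenesis and detoxification, and clones of one line can differ in how much of it they keep. In a bulk culture, fewer cells of a type and less RNA per cell cannot be told apart.

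Levels below are normalized log2 intensities, in which a step of 1 is a doubling of the signal, and differences are 4-18 minus 3-44. A probe was called when it differed at least 2-fold with a Benjamini-Hochberg adjusted p under 0.05 in the limma fit of the 8 arrays. The arrays of 4-18 were dimmer than those of 3-44 before normalization. The 75th percentile of the processed signal lay between 1613 and 1878 in 4-18 and between 2290 and 3647 in 3-44, and 53.1% to 64.1% against 65.8% to 74.3% of the spots were well above background. The median SD between replicates was 0.196 in 4-18 and 0.158 in 3-44. Arrays correlated at 0.987 to 0.993 within 4-18, at 0.989 to 0.998 within 3-44 and at 0.973 to 0.986 between the clones. Replicate 1 of 3-44, and to a lesser degree replicate 1 of 4-18, was the array most often apart from the other 3 of its clone.

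The clones differed at 1323 of 26264 gene names (5.04%), of which 555 (2.11%) were higher in 4-18 and 768 (2.92%) were lower, and 3 names called in both directions by different probes were left out. Probe by probe, 1379 of 30360 were called (4.54%; 1.9% higher and 2.64% lower), 1244 of them between 2-fold and 4-fold and 135 at 4-fold or more. The balance of directions depended on the scaling. In the quantile-normalized values 42.0% of the called names were higher in 4-18, against 58.5% when the background-corrected arrays were scaled to their 75th percentile, 18.6% with median centring and 8.94% in the deposited values without scaling. These scalings moved the median difference of all probes to 0.84, 0.35 and 0.25, while quantile normalization held it at 0.00026. Statements on a group below are therefore read against all genes measured. When each gene was represented by its brightest probe, 4.73% were called, 2.01% higher and 2.71% lower, and in 21.8% of genes the 4 arrays of one clone all lay beyond the 4 of the other.

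Pdrg1 is the gene silenced in both clones. Its level in 4-18 was 11.57, 13.33, 13.34 and 13.25 in replicates 1 to 4, and in 3-44 it was 11.89, 12.86, 12.90 and 12.95. Replicate 1 was low in both clones, and the clones overlapped. The difference was 0.22 (SE 0.43, adjusted p = 0.79 in the limma fit, two-sided exact permutation p = 0.514). CN-10 had levels of 13.41 to 13.88 (mean 13.64) and shRNA3T a mean of 12.79. All 8 arrays of the clones lay below the 4 of CN-10, replicates 2 to 4 of 4-18 by little, and the values do not tell one clone from the other. Without replicate 1 of both clones the difference was 0.41 with an adjusted p of 0.0163 in limma, below the 2-fold limit, and without replicate 1 of 3-44 alone it was -0.03. The probe lies at chr3:143353382-143353441 of the rn4 build, on the minus strand.

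Mat1a encodes the methionine adenosyltransferase subunit of the mature liver. Its levels of 11.28, 11.61, 10.81 and 10.50 in 4-18 overlapped the 10.58, 11.87, 12.09 and 12.13 of 3-44, with a difference of -0.62 (SE 0.38, adjusted p = 0.34 in limma). Mat2a, the catalytic subunit of growing and extrahepatic cells, stood at 10.14, 10.06, 10.27 and 10.26 in 4-18 and at 9.77, 9.30, 9.32 and 9.21 in 3-44. The clones did not overlap at that probe, whose difference of 0.78 (SE 0.13, adjusted p = 0.0052 in limma) stayed under the 2-fold limit, and a second Mat2a probe gave -0.10 (adjusted p = 0.871). Mat2b, the regulatory subunit, stood at 11.65, 12.96, 12.19 and 12.20 in 4-18 and at 10.91, 11.77 and 11.32 on the 3 unflagged arrays of 3-44, which overlapped (0.92, SE 0.32, adjusted p = 0.104 in limma), and its second probe gave -0.16 (adjusted p = 0.618). Of 28 genes of the methionine cycle and transsulfuration none was called in limma, with a median of -0.12 and a range from -0.74 to 0.92. Under the alternatives 0 to 5 were called lower and none higher. The median then lay between -0.47 and 0.12, or between -0.72 and -0.05 less the median of all probes. Of 20 measured prefoldin, chaperonin and other partners of PDRG1, 3 fell, 15% against 4.73% of all genes. These were Cct4 (-1.40) and Tcp1 (-1.15), subunits of the cytosolic chaperonin, and Pfdn6 (-1.05), a subunit of prefoldin. All 20 were well above background on the 8 arrays, a class in which 3.78% of genes with a position were called higher and 4.96% lower. A second Tcp1 probe had 1 unflagged array in 4-18 and was not fitted, and with flagged spots kept it gave -0.42 (adjusted p = 0.178 in limma), short of a call. The call of Pfdn6 was lost without replicate 1 of 3-44 or replicate 2 of 4-18, where its difference was as small as -0.88. None of the 20 rose.

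The genes with the largest changes in either direction included secreted proteins and metabolic enzymes of the liver as well as genes of other functions. Fabp1, the fatty acid binding protein of the hepatocyte cytosol, differed most among those named. Its level was 8.22, 7.90, 7.94 and 7.92 in 4-18 and 14.04, 14.32, 13.56 and 14.25 in 3-44. Every array of 4-18 lay far below every array of 3-44, 66.2-fold by their means (difference -6.05, SE 0.17, adjusted p = 8.38e-07 in limma). CN-10 stood between them at 9.62 and shRNA3T at 14.30. The probe is at chr4:104413796-104413855 (rn4).

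The apolipoprotein genes Apoa1 and Apoc3 were also lower in 4-18, whereas Apoc2 (0.82, adjusted p = 0.011 in limma) and Apoe (0.30, adjusted p = 0.0353) were higher by less than the 2-fold limit and Apoh did not pass the test (-0.10, adjusted p = 0.44). Apoa1, the main protein of high-density lipoprotein, stood at 7.98, 7.49, 8.67 and 8.03 in 4-18 and at 12.57, 12.16, 12.17 and 12.47 in 3-44, 19.7-fold apart (-4.30, SE 0.23, adjusted p = 2.24e-05 in limma). Its neighbour Apoc3, an inhibitor of lipoprotein lipase, stood at 9.65, 10.29, 9.33 and 10.50 against 13.53, 12.99, 13.11 and 13.09 (-3.24). For both genes the arrays of 4-18 were all lower than those of 3-44, and CN-10 lay in between with means of 10.16 for Apoa1 and 11.46 for Apoc3.

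Itih4, a plasma protein with an inter-alpha-trypsin inhibitor heavy chain, was also lower in 4-18, at 7.94, 7.59, 7.54 and 7.51. In 3-44 it ranged from 10.76 to 13.66, the widest spread among the leading genes, and the difference was -4.40 (SE 0.53, adjusted p = 0.0011 in limma). The protease-binding plasma proteins Mug1 (-3.38) and Pzp (-3.06) fell as well. Lcn2, an iron-siderophore binding protein of inflammation, was at 7.35, 7.0, 7.73 and 7.61 in 4-18 and at 11.45, 10.96, 11.22 and 10.96 in 3-44 (-3.73), with CN-10 at 11.29. Sdr16c6 did not rise clearly over background in 4-18 and was at least 20.8-fold lower there, Eps8l3 at least 11.2-fold and Cyp3a18, a steroid- and drug-oxidizing cytochrome P450, at least 8.44-fold. Anxa13, an annexin of epithelial cells, fell by 4.29, and Saa4, a constitutive serum amyloid A, fell by 3.03 at its brightest probe, while its second probe was not well above background in 4-18 and was not called.

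The genes that rose in 4-18 were led by Lcp1, which encodes the actin-bundling protein L-plastin. Its level was 11.92, 13.27, 13.41 and 13.41 in 4-18 and 7.23, 8.12, 7.93 and 7.89 in 3-44, 37-fold apart (5.21, SE 0.35, adjusted p = 6.98e-05 in limma). Replicate 1 was the lowest array of both clones, and the clones did not overlap. Lcp1 is best known from leukocytes. Of 13 macrophage and leukocyte markers none rose in 4-18 and 2 fell, with a summed linear level of 2649 to 3084 in 4-18 and 5732 to 7198 in 3-44, and the part of such cells in the Lcp1 result was not tested. CN-10 stood at 8.93 and shRNA3T at 7.60, and the probe is at chr15:56091784-56091843 (rn4).

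C5, a complement component made by the liver, stood at 12.24, 12.39, 12.14 and 12.55 in 4-18 and at 8.56, 9.01, 8.79 and 8.71 in 3-44, 11.8-fold higher (3.56, SE 0.13). Bcat2, which transfers the amino group of branched-chain amino acids in mitochondria, was at 12.46, 12.21, 12.21 and 12.10 against 9.26, 8.92, 9.14 and 8.70 (3.24), and its second probe gave 2.47. Slc30a2, a zinc transporter, rose from a mean of 7.07 in 3-44 to 10.60 in 4-18 (3.53). These 3 genes were higher on every array of 4-18 than on any of 3-44.

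Slc22a12, a urate transporter, rose by 4.27 and was well above background on 1 of the 4 arrays of 3-44. Mro rose by 3.75, the uridine phosphorylase Upp2 by 3.53, and Sptlc3, a subunit of serine palmitoyltransferase, by 3.52 at one probe and 2.94 at the other. Dab2ip, a Ras GTPase activating protein, rose by 3.37. Chia, an acidic chitinase, was at least 13.1-fold higher and Nptx1 at least 9.91-fold higher in 4-18, since neither was well above background in 3-44. A second Tmem164 probe, not well above background in either clone, gave 0.01 where the first gave 3.28. The rule that named the 24 genes with the largest or smallest differences required that the clones not overlap, which fixes their exact permutation p at 0.0286, the smallest that 4 arrays against 4 allow.

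**Figure D1:**
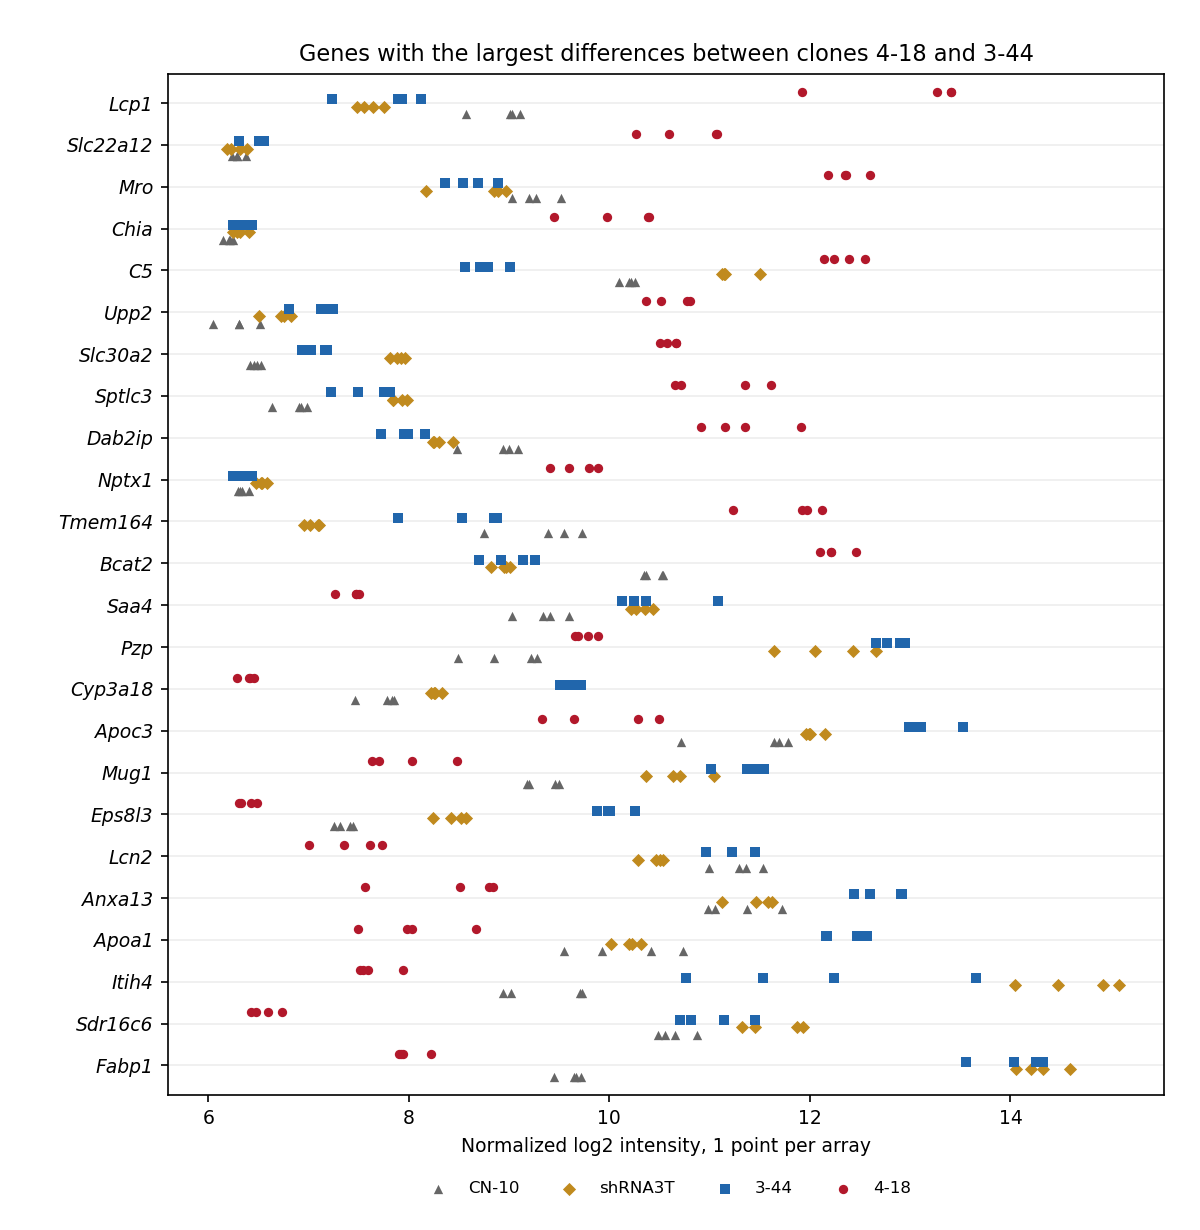
Normalized log2 intensity of the leading genes on each array, with one point per array and colours for the groups (4-18, 3-44, CN-10 and shRNA3T, 4 arrays each). Fabp1 lay at 7.90 to 8.22 in 4-18 and at 13.56 to 14.32 in 3-44, and Lcp1 at 11.92 to 13.41 against 7.23 to 8.12.

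Of the 35 hepatocyte markers and plasma proteins on the array, 12 fell, 3 rose and 20 were not called, so that 42.9% were called against 4.73% of all genes. Of the 35, 26 were well above background on all 8 arrays, a class in which 3.78% of genes with a position were called higher and 4.96% lower. The list's median difference was -0.31 against 0.00033 over all genes, and it stayed below 0, between -0.81 and -0.22, under every alternative of scaling, filter and arrays that was run. After Fabp1, Apoa1 and Apoc3 came Fga, a chain of fibrinogen (-2.91), the iron carrier Tf (-2.52, with 1 spot of 3-44 set aside) and Itih3 (-2.38). The vitamin D binding protein Gc fell by 1.80, the apolipoprotein of very-low-density lipoprotein Apob by 1.52, Pck1, which commits oxaloacetate to gluconeogenesis, by 1.51, Ambp by 1.51, the fibrinogen chain Fgb by 1.34 and Ahsg by 1.05. With single arrays left out the difference of Apob ranged from -1.79 to -1.26, and its call was lost without replicate 2, 3 or 4 of 3-44. That of Ahsg ranged from -1.23 to -0.86, and its call was lost without replicate 1 or 3 of 3-44 or replicate 1 or 2 of 4-18.

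Fga was measured at 8.41, 9.02, 8.48 and 9.02 in 4-18 and at 10.94, 12.23, 12.10 and 11.29 in 3-44. Gc stood at 13.46, 12.12, 12.54 and 12.87 against 14.74, 14.47, 14.56 and 14.41. The arrays of 4-18 were below those of 3-44 for both genes, with a larger spread in 4-18 for Gc (SD 0.567 against 0.144).

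The programme did not move as a block. Serpina6, the corticosteroid carrier of plasma, rose by 2.41, from 9.85, 9.55, 9.56 and 9.57 in 3-44 to 11.81, 11.53, 12.36 and 12.47 in 4-18. The haemoglobin-binding plasma protein haptoglobin (Hp) rose by 1.58 (1.24 to 1.81 with single arrays left out, and not called without replicate 2 or 3 of 3-44 or replicate 3 of 4-18). Albumin (Alb) was bright in both clones, with means of 17.31 and 17.14 and a difference of 0.17 (adjusted p = 0.84 in limma), and alpha-fetoprotein (Afp) differed by -0.08 (adjusted p = 0.743). Of 24 hepatocyte transcription factors, 1 was called (4.17%), the coactivator Ppargc1a, which was not well above background in 3-44 and was at least 4.77-fold higher in 4-18.

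Relative to the mean of CN-10, the median of the hepatocyte list was between -0.01 and 0.04 on the arrays of 4-18, between 0.36 and 0.58 on those of 3-44 and between 0.62 and 0.87 on those of shRNA3T. The arrays of 4-18 were thus at the level of the control clone for the list as a whole, and those of 3-44 were above it. Among single genes 4-18 was below CN-10 for Fabp1 and Apoa1, as given above. For Serpina6 it was above CN-10, whose mean was 6.89.

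**Figure D2:**
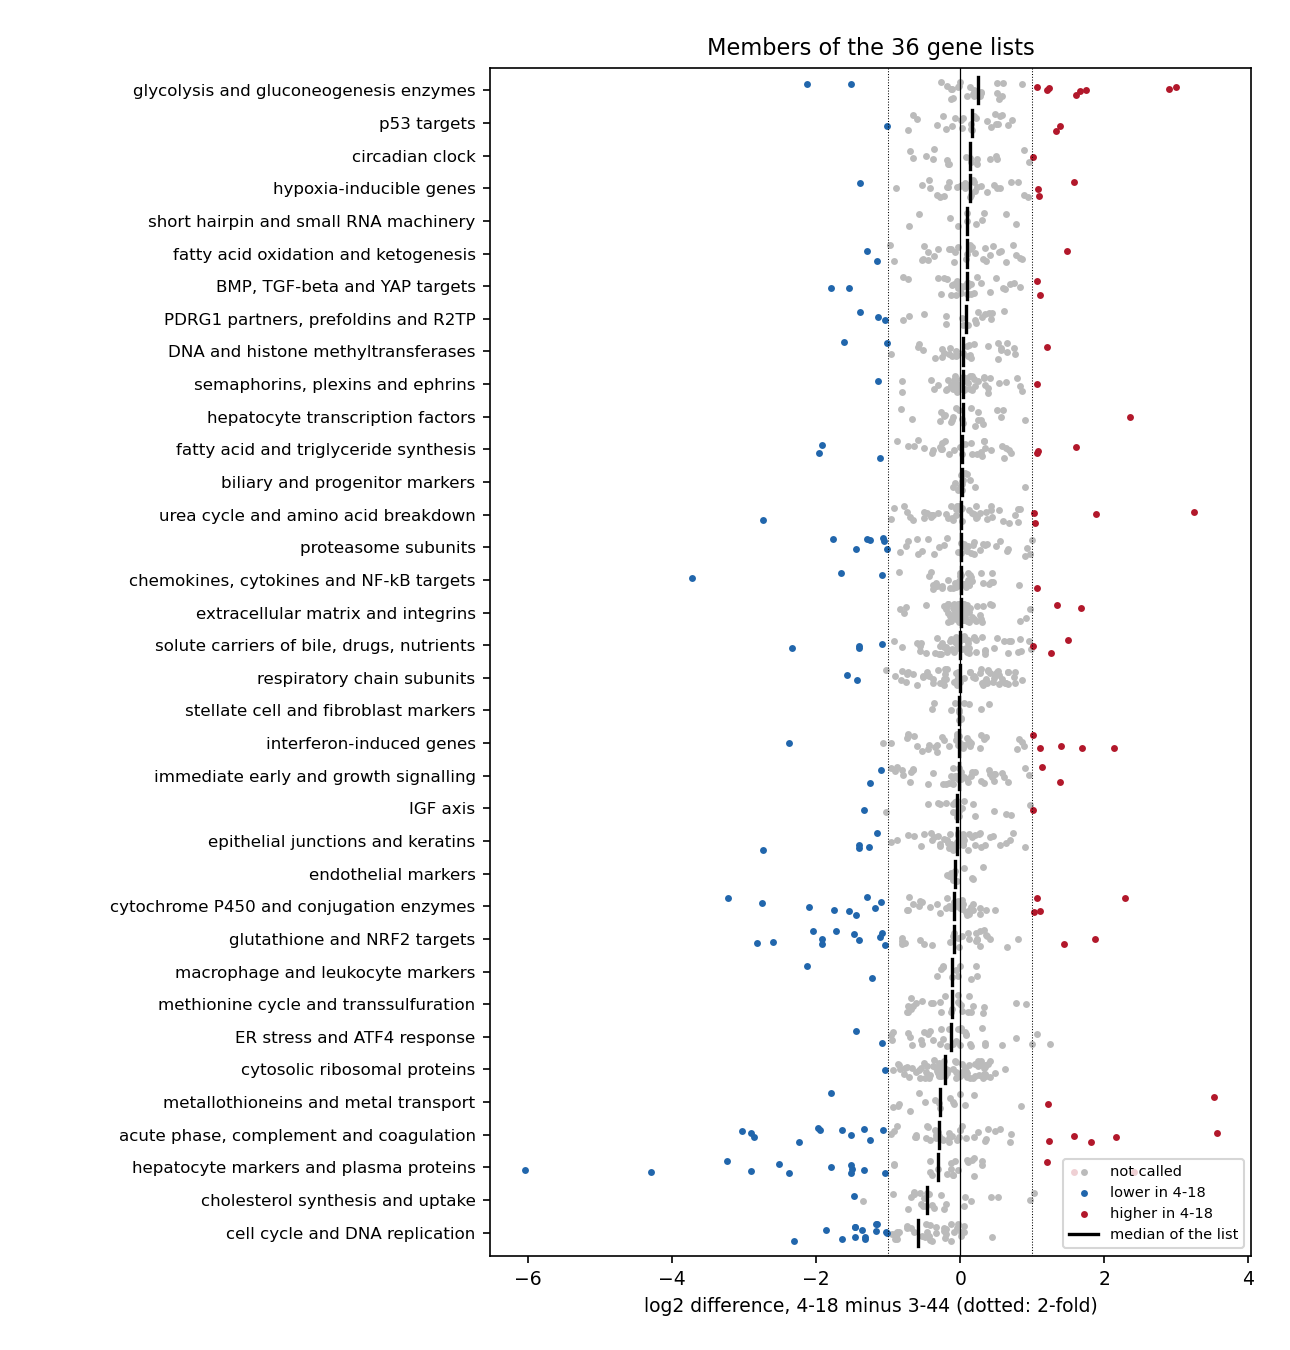
Log2 difference between 4-18 and 3-44 for the members of gene lists, one point per gene, with the list medians marked and called genes coloured. The hepatocyte list has a median of -0.31 with 12 members called lower, and the cell cycle list a median of -0.59 with 14 called lower and none called higher.

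The promoters of the hepatocyte genes that fell were searched on both strands for 6 short motifs, in choices made after the values had been seen. Promoters of 9 of the 12 genes were in the RefSeq table used (GRCr8 build, 250 bases before to 50 bases after the start site). The letters GTTAAT, the half-site of hepatocyte nuclear factor 1, were found on either strand in 5 of these 9, in 3 of 18 promoters of list members that were not called and in 7.45% of all 33469 promoters. The 5 promoters are shown without the bases after the start site, 5′ to 3′ on the strand of the gene, in lower case with the match (GTTAAT, or ATTAAC where it lies on the other strand) in capitals, so that its distance to the start site at the right-hand end can be seen.
Fabp1 chr4:104749090-104749339 (+): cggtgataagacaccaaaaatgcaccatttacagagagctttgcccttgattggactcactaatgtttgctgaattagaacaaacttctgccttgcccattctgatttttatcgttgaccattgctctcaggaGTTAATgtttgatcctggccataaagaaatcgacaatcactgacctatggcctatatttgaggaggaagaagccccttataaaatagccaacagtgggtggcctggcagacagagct
Fga chr2:170671919-170672168 (+): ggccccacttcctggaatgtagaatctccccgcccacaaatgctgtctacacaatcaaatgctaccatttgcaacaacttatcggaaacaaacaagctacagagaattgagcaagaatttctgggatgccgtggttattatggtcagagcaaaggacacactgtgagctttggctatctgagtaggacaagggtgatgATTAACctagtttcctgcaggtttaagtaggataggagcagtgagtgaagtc
Gc chr14:18916005-18916254 (+): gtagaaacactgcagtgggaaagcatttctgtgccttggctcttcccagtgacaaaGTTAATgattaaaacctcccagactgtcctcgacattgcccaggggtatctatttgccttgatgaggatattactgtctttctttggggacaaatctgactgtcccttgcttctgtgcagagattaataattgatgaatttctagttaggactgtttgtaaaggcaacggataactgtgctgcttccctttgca
Pck1 chr3:182348322-182348571 (+): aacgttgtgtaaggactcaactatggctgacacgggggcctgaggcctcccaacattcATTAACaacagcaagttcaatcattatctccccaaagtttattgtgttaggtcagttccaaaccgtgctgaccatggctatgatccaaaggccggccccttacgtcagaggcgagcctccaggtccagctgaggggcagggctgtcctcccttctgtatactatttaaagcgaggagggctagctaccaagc
Fgb chr2:170700876-170701125 (-): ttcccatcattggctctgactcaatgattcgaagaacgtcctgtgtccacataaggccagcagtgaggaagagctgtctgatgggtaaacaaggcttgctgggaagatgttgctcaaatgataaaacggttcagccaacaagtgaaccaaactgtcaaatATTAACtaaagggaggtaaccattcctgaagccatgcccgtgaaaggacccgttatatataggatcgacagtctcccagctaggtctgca

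The match began 117 bases before the start site in Fabp1, 52 in Fga, 194 in Gc, 192 in Pck1 and 90 in Fgb. Fga and Fgb are neighbouring genes of one fibrinogen cluster on chromosome 2. Alb and Afp, which were not called, were 2 of the 3 uncalled members with the letters. The half-site of hepatocyte nuclear factor 4, CAAAGT, was found in 3 of the 9 promoters, in 2 of the 18 and in 14.8% of all promoters. The letters TTTGAA were in none of the 9 and 18.3% of all promoters, CCAAT in 4 and 37.5%, TGANNNNGC in 4 and 40.5%, and TGANNCAGC in none and 4.72%. A match is a string of letters in the window and not a measured binding site.

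Acute phase, complement and coagulation genes moved both ways. Of 53 on the array 5 rose and 11 fell (30.2% called), with a median of -0.30 that stayed below the median of all genes under each alternative, although it turned positive, to 0.46, under the 75th percentile scaling of the background-corrected signal. Among those that fell were Serpina3n, a protease inhibitor of the acute phase (-2.86), the complement gene C8g (-2.24), coagulation factor F10 (-1.98) and the central complement protein C3 (-1.95). Those that rose beside C5 were Serping1, the inhibitor of complement C1 (2.16), Lbp, which binds lipopolysaccharide (1.81), Hp and the tissue factor F3 (1.23). Serping1 rested on a wide spread in 3-44, at 10.69, 13.31, 13.33 and 13.04 against 13.88, 14.90, 15.06 and 15.17 in 4-18, and its difference ranged from 1.53 to 2.45 when single arrays were left out, with the call lost without any one of replicates 2, 3 and 4 of 3-44 or of 4-18.

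Cell cycle and DNA replication genes were lower in 4-18. Of the 50 on the array 14 fell and none rose, 28.0% in all, and 45 of the 50 differences were below 0. The median was -0.59, that is 1.51-fold, against 0.00033 over all genes. It remained between -1.06 and -0.48 under all alternatives, with 4 to 21 members called lower. When single arrays were left out, 11 to 15 were called.

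Ccnb1, the cyclin of entry into mitosis, fell most. Its level was 11.04, 10.43, 10.62 and 11.23 in 4-18 and 13.39, 13.07, 13.12 and 12.98 in 3-44 (-2.31, SE 0.18, adjusted p = 0.00016 in limma). E2f1, a transcription factor of the G1 to S transition, stood at 11.52, 11.05, 11.32 and 10.04 against 13.14, 12.72, 12.77 and 12.73 (-1.86). Mcm3, a subunit of the replicative helicase, stood at 13.12, 14.09, 13.05 and 12.59 against 15.13, 14.86, 14.73 and 14.68 (-1.64). In these 3 genes the clones did not overlap, and CN-10 was near 3-44, at 12.81, 13.09 and 15.24.

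Other subunits of the helicase and its loading factors fell too, namely Mcm7 (-1.46), Mcm2 (-1.17), Mcm4 (-1.16), Gins1 (-1.46), Gins2 (-1.32), Orc1 (-1.46) and Cdt1 (-1.04). Rrm2, which makes deoxyribonucleotides, fell by 1.36, the G1 kinase Cdk6 by 1.32 and the checkpoint kinase Bub1b by 1.01. Foxm1, a factor of mitotic gene expression, fell by 1.18 at its brightest probe, and its second probe gave -0.31 (adjusted p = 0.0883 in limma). With single arrays left out Gins2 ranged from -1.54 to -0.97 and kept its call only without replicate 3 or 4 of 4-18, Cdt1 ranged from -1.17 to -0.97 and lost it without replicate 4 of 3-44 or replicate 1 of 4-18, and Bub1b ranged from -1.14 to -0.90 and lost it without replicate 2 or 3 of 3-44 or replicate 1 or 3 of 4-18. Against CN-10, the median of the list lay between -0.71 and -0.45 on the arrays of 4-18, between -0.09 and 0.12 on those of 3-44 and between -1.02 and -0.80 on those of shRNA3T, so 3-44 was the group nearest to the control clone. Ezh2, the methyltransferase of histone H3 lysine 27, is not in that list and fell by 1.62, with 8.62, 8.16, 8.72 and 7.81 in 4-18 against 10.26, 9.88, 9.93 and 9.73.

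Enzymes of glycolysis and gluconeogenesis were called more often as higher. Of 34 on the array 8 rose and 2 fell (29.4%), and the median was 0.25, which moved between -0.04 and 0.57 with the scaling. Less the median of all probes it ranged from -0.29 to 0.32 under the alternatives, in which 3 to 8 were called higher and 2 lower. Ldhb, a lactate dehydrogenase subunit, averaged 10.34 in 4-18, where no array was below 10.16, and was at 7.6, 7.34, 7.44 and 7.0 in 3-44, 8-fold higher (3.00). Gckr, the regulatory protein of glucokinase, stood at 10.49, 10.94, 11 and 11.02 against 7.96, 7.98, 7.88 and 8.04 (2.90). Both genes were close to 3-44 in CN-10, at 7.59 and 7.57.

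The fructose bisphosphatases Fbp1 (1.61) and Fbp2 (1.67), which catalyse a late step of gluconeogenesis, rose as well, as did the phosphofructokinase genes Pfkp (1.75) and Pfkm (1.23) and the glucose-6-phosphatase gene G6pc3 (1.06). The carboxykinase genes of the same pathway fell, the cytosolic Pck1 (-1.51) and the mitochondrial Pck2 (-2.13). Gluconeogenic genes thus stood on both sides, and G6pc3 was below 2-fold (0.95) without replicate 1 of 4-18. Fbp1 lay at 12.54 to 12.86 in 4-18 and at 10.91 to 11.31 in 3-44.

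Glutathione and NRF2 target genes, which conjugate electrophiles and answer to oxidants, were called lower more often. Of 40 on the array 11 fell and 2 rose (32.5%), while the median was only -0.09. Gstm3, a glutathione transferase, stood at 6.78, 6.79, 7.08 and 6.96 in 4-18 and at 10.05, 9.79, 9.56 and 9.48 in 3-44 (-2.82), and was well above background on 2 of the 4 arrays of 4-18. Its second probe, also called lower, was not well above background in 4-18. Akr1b8, an aldo-keto reductase, stood at 14.72, 15.33, 14.00 and 14.58 against 17.49, 17.17, 17.26 and 17.10 (-2.60). The arrays of 4-18 lay below those of 3-44 for both genes.

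The transferase genes Gstm1 (-2.04), Gstm2 (-1.92), Gsta5 (-1.92), Gsta3 (-1.48) and Gstp1 (-1.05) followed, with Abcc2, the exporter of conjugates into bile (-1.41), Gpx2 (-1.11) and the cystine carrier Slc7a11 (-1.09). Without replicate 3 of 4-18 neither Gpx2, at -0.88 to -1.26 with single arrays left out, nor Gstp1, at -0.95 to -1.11, was called, and Gstp1 was not called without replicate 1 of 3-44. Gst genes are close in sequence, and hybridization of one to the probe of another was not tested. Hmox1, the haem oxygenase that is a target of NRF2 as well, went the other way at 12.22, 12.56, 12 and 12.13 in 4-18 and 10.48, 10.69, 10.64 and 11.35 in 3-44 (1.44), and Gpx3, a secreted glutathione peroxidase, rose by 1.87. The letters TGANNNNGC of the antioxidant response element were in 6 of 10 promoters of the members that fell, in 13 of 22 of those not called and in 40.5% of all promoters.

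Of 48 cytochrome P450 and conjugation enzymes 9 fell and 4 rose (27.1%), and under the alternatives 2 to 13 fell and 1 to 4 rose. The median was -0.09 and ranged from -0.57 to 0.67 with the settings. Less the median of all probes it stayed below 0, from -0.64 to -0.03. Ugt2b7, a glucuronosyltransferase, was at least 6.18-fold lower and Cyp3a62 at least 3.02-fold lower in 4-18, neither being well above background there. Cyp1a2, which oxidizes planar aromatic compounds, rose by 2.29, at 10.91, 10.86, 10.73 and 10.49 against 8.76, 8.47, 8.41 and 8.19. The bile acid hydroxylase Cyp8b1 rose by 1.06.

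In amino acid metabolism Bcat2, Glul, which makes glutamine (1.88), Asl of the urea cycle (1.04) and Got2 (1.02) rose and Hal, which breaks down histidine, fell by 2.74, 5 of 51 genes in all. That share was 9.8%, against 4.73% of all genes. With single arrays left out Asl ranged from 0.92 to 1.13 and lost its call without replicate 4 of 3-44 or replicate 1 of 4-18, and Got2 ranged from 0.95 to 1.13 and lost it without replicate 2 or 3 of 3-44 or replicate 3 of 4-18. Glul was at 11.77, 11.76, 11.66 and 11.52 in 4-18 and at 9.82, 9.82, 9.86 and 9.68 in 3-44, and CN-10 lay between them at 10.72.

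In lipid metabolism the fatty acid synthase Fasn rose by 1.61 and the acyl-CoA synthetase Acsl4 fell by 1.92, each being 1 of the 3 called in its direction among 37 genes of fatty acid and triglyceride synthesis (16.2% called). Of 27 genes of cholesterol synthesis and uptake 20 had differences below 0, and the median of -0.46 lay between -0.99 and -0.37 under all alternatives, but 1 was called (3.7%), Nsdhl (-1.48), and 1 or 2 were called when single arrays were left out. Under all alternatives 1 to 7 were called lower and none higher. Against CN-10 the median of the cholesterol list was between -0.06 and 0.06 on the arrays of 4-18 and between 0.35 and 0.57 on those of 3-44.

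Of 44 interferon-induced genes 5 rose and 1 fell, 13.6% against 4.73% of all genes. Mx1, an antiviral GTPase, fell from 9.52, 9.81, 9.93 and 10.03 in 3-44 to 7.64, 7.47, 7.47 and 7.21 in 4-18, below the 11.71 of CN-10 (-2.37). Ifi44 rose, at 10.84, 10.41, 10.56 and 10.57 in 4-18 against 7.94, 8.78, 8.76 and 8.35 (2.13). The median of the list was -0.02 and moved between -0.19 and 0.71 with the settings, or between -0.28 and 0.04 less the median of all probes. Under these settings 1 to 6 members were called higher and 0 to 4 lower. Of the 5 that rose, 3 (Trim25, 1.70, Dhx58, 1.40, and Ifi35, 1.00) lie in the last part of chromosome 10 described below. Trim25 ranged from 1.23 to 1.86 with single arrays left out and lost its call without replicate 2, 3 or 4 of 4-18, and Ifi35 ranged from 0.88 to 1.09 and lost it without replicate 1 or 2 of 3-44 or replicate 1 or 3 of 4-18. Of 42 chemokine, cytokine and NF-kB target genes 1 rose and 3 fell (9.52%), with the neutrophil attractant Cxcl1 (-1.66) after Lcn2.

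Several large groups had a share of calls near or below that of all genes. Of 79 cytosolic ribosomal protein genes 1 was called, lower in 4-18, of 70 respiratory chain genes 2, of 69 extracellular matrix and integrin genes 2 and of 38 ER stress genes 2, shares from 1.27% to 5.26% against 4.73% of all genes. All 79 ribosomal and 67 of the respiratory chain genes were well above background on all 8 arrays, where 3.78% of genes with a position were called higher and 4.96% lower. Under the alternatives 0 to 9 ribosomal and 1 to 10 respiratory chain genes were called lower and none higher. The respiratory chain calls were Cox6a2 (-1.57) and Ndufs4 (-1.43), counted by their brightest probes, and a second, dimmer Ndufs4 probe was called in the other direction (1.16, adjusted p = 0.000803 in limma), so that Ndufs4 has no settled direction and is 1 of the 3 names left out of the count over all genes. Among 53 epithelial junction and keratin genes 5 fell (9.43%), led by the calcium-binding S100a6 (-2.73), at 12.08, 11.92, 11.88 and 11.81 against 14.94, 14.38, 14.89 and 14.42. Of 71 solute carriers of bile, drugs and nutrients 3 rose and 4 fell (9.86%), and of 47 immediate early and growth signalling genes 2 rose and 2 fell (8.51%). Hamp, the iron hormone of the liver, fell by 1.80, and the metallothionein Mt2A rose by 1.22 and by 1.70 at its second probe. The ribosomal call, the laminin receptor Rpsa, ranged from -1.28 to -0.83 with single arrays left out and kept its call only without replicate 2 or 4 of 4-18.

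Markers of other liver cell types were measured as well. Of 11 endothelial markers 7, of 13 stellate cell and fibroblast markers 5 and of 15 biliary and progenitor markers 6 had no array well above background in either clone, among them Pecam1, Kdr, Krt19 and Epcam, and none of these 3 lists had a call by the brightest probe. One of the other probes of the endothelial gene Vwf was called higher in 4-18 (1.53), and a further one gave -0.12. The summed linear level of the endothelial list was 1648 to 2218 in 4-18 and 1787 to 2140 in 3-44, and that of the stellate list was 1482 to 1583 against 1518 to 1629. The biliary list summed to 42665 to 55365 against 39560 to 46701. Of 13 macrophage and leukocyte markers 3 (Ptprc, Cd163 and Cd79a) had no array well above background in either clone, none rose and 2 fell, the lysozyme Lyz2 (-2.13) and Cd14 (-1.23), with the summed levels given beside Lcp1. The part of such cells in the other results was not tested.

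Position along the chromosomes was examined over the 11516 genes with a position on rn4 and a signal well above background throughout the 8 arrays, of which 3.78% were called higher and 4.96% lower. For each array, the median of a chromosome's genes was taken relative to the mean of CN-10 and to the median of all chromosomes on that array. On 7 of 21 chromosomes (3, 9, 10, 12, 15, 16 and X) the arrays of the clones did not overlap, with an exact permutation p of 0.0286 each, the smallest possible, and 0.0857 after Benjamini-Hochberg adjustment over the 21. The difference was 0.23 for chromosome 10, -0.42 for chromosome 15, -0.39 for chromosome 16 and -0.18 for X. Chromosome 10 was at 0.24 to 0.29 in 4-18 and at 0.0043 to 0.0617 in 3-44. The median of the fitted differences of the genes was 0.285, -0.392, -0.339 and -0.148 on chromosomes 10, 15, 16 and X, against 0.0701 over all chromosomes. Taken less the median of all chromosomes, it kept its sign under the alternatives of signal, filter, fit and left-out arrays. It then stayed within 0.20 to 0.26, -0.47 to -0.41, -0.47 to -0.38 and -0.22 to -0.14. A constant scaling of each array cancels in this measure and cannot move it.

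**Figure D3:**
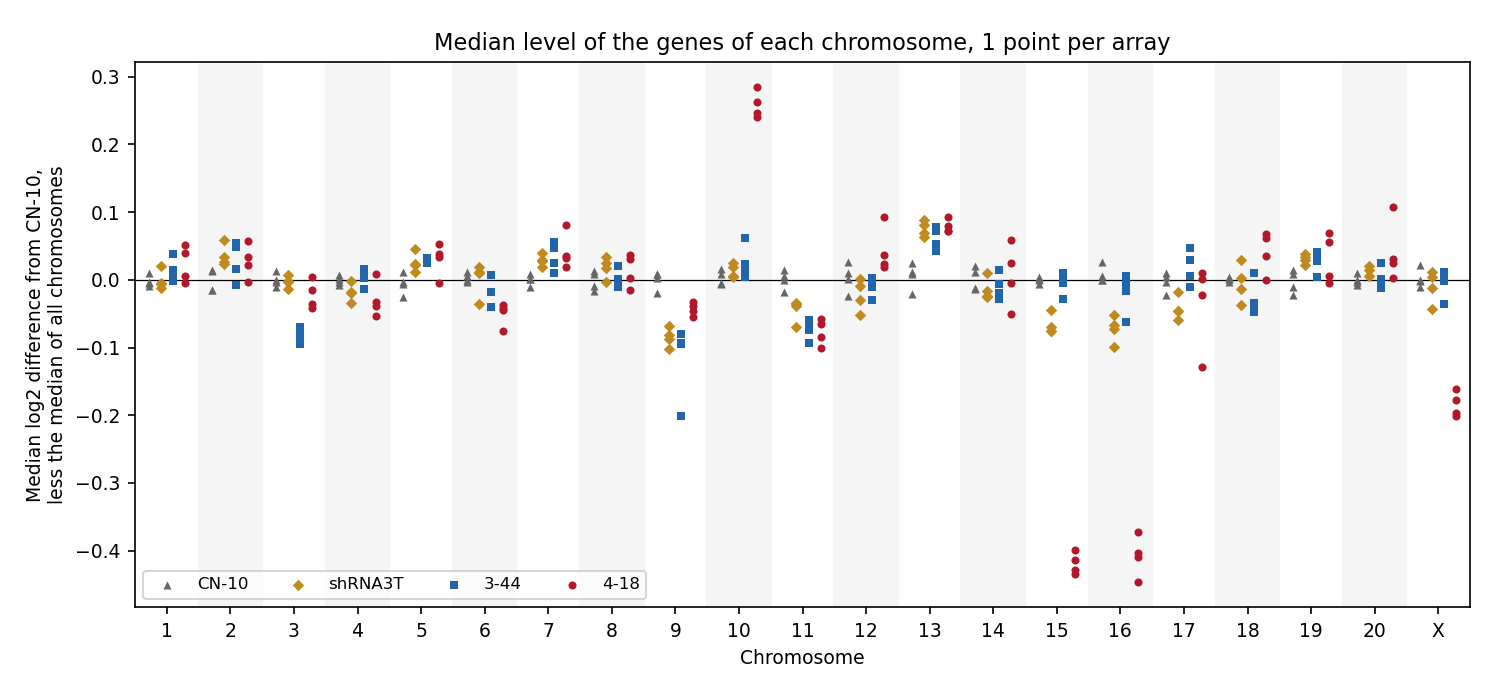
Median log2 level of the genes of each chromosome relative to CN-10 and to the median of all chromosomes, one point per array. Arrays of 4-18 lie above 3-44 on chromosome 10 (0.24 to 0.29) and below it on chromosomes 15 and 16.

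In windows of 5 Mb the shifts of chromosomes 10, 15 and 17 lay in a part of the chromosome. On X, 45 of 408 genes were called lower and 7 higher, and 3 of its windows had medians near those of the stretches, chrX:155000001-160000000 (-0.64), chrX:130000001-135000000 (-0.55) and chrX:5000001-10000000 (-0.49). Another 6 windows, on chromosomes 3, 7, 9 and 19, had medians of 0.42 to 0.58, the highest at chr9:5000001-10000000 (0.58, with 1 of 31 genes called higher) and chr19:10000001-15000000 (0.48, with 8 of 41 called higher and 1 lower). These windows and those of X were not taken as stretches and are counted elsewhere below. The stretches described next were chosen from those windows after their values had been seen, so no test is given for them. On chromosome 10 the 510 genes beyond 60 Mb had a median difference of 0.49 (1.4-fold), 79.4% of them were above 0, and 84 were called higher against 2 lower. Array by array the median relative to CN-10 was 0.44 to 0.49 in 4-18, 0.0192 to 0.0614 in 3-44 and 0.0241 to 0.044 in shRNA3T. The 430 genes before 60 Mb had a median of 0.06, with 15 called higher and 12 lower. The stretch holds Arsg, a sulfatase (2.58), Hsd17b1, which makes oestradiol (1.88), the kinase gene Nek8 (1.73) and Axin2, a Wnt target and inhibitor (1.57).

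On chromosome 15 the 200 genes of the first 45 Mb had a median of -0.56 (1.48-fold lower), and 50 were called lower against 3 higher. Their median was -0.66 to -0.63 on the arrays of 4-18 and -0.107 to 0.00645 on those of 3-44, while the 130 genes of the rest of the chromosome had a median difference of 0.02. Cryl1, a lambda-crystallin of sugar metabolism (-2.31), the ribonuclease Rnase1 (-2.25), Pck2, Cideb, a lipid droplet protein (-1.97), and the DNA repair gene Parp2 (-1.78) lie there. Lcp1, which rose, lies beyond this stretch on the same chromosome.

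On chromosome 16 all 350 genes together had a median of -0.34, with 39 called lower and 4 higher and array medians of -0.45 to -0.37 in 4-18 against -0.0628 to 0.00591 in 3-44. It carries the inter-alpha-trypsin inhibitor genes Itih1 (-1.86), Itih3 and Itih4 within chr16:6334720-6364585 (rn4), the cationic amino acid carrier Slc7a2 (-2.34) and the chromatin protein gene Hmgb2 (-2.32). A middle part of chromosome 17, from 45 to 55 Mb with 62 genes, had a median of -0.59 (array medians -0.61 to -0.55 in 4-18, -0.0168 to 0.198 in 3-44 and -0.32 to -0.21 in shRNA3T), and 18 genes were called lower. Histone genes such as Hist1h4b (-1.84) and Hist1h2af (-1.07) lie there. Hist1h2af was not called without replicate 2 of 4-18 (-0.89 at the least with single arrays left out). Histone genes of a cluster are close in sequence, and cross-hybridization was not tested.

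The 3 lower stretches held 5.31% of the genes and 18.7% of the lower calls, and the higher stretch held 4.43% of the genes and 19.3% of the higher calls. In the 10394 genes elsewhere, 344 were called higher and 462 lower, 7.75% in all. Leaving the 4 stretches out lowered the count of called names from 1323 to 1074 (453 higher and 621 lower), an alternative chosen after seeing the data. DNA copy number was not measured, and its part in these shifts was not tested.

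**Figure D4:**
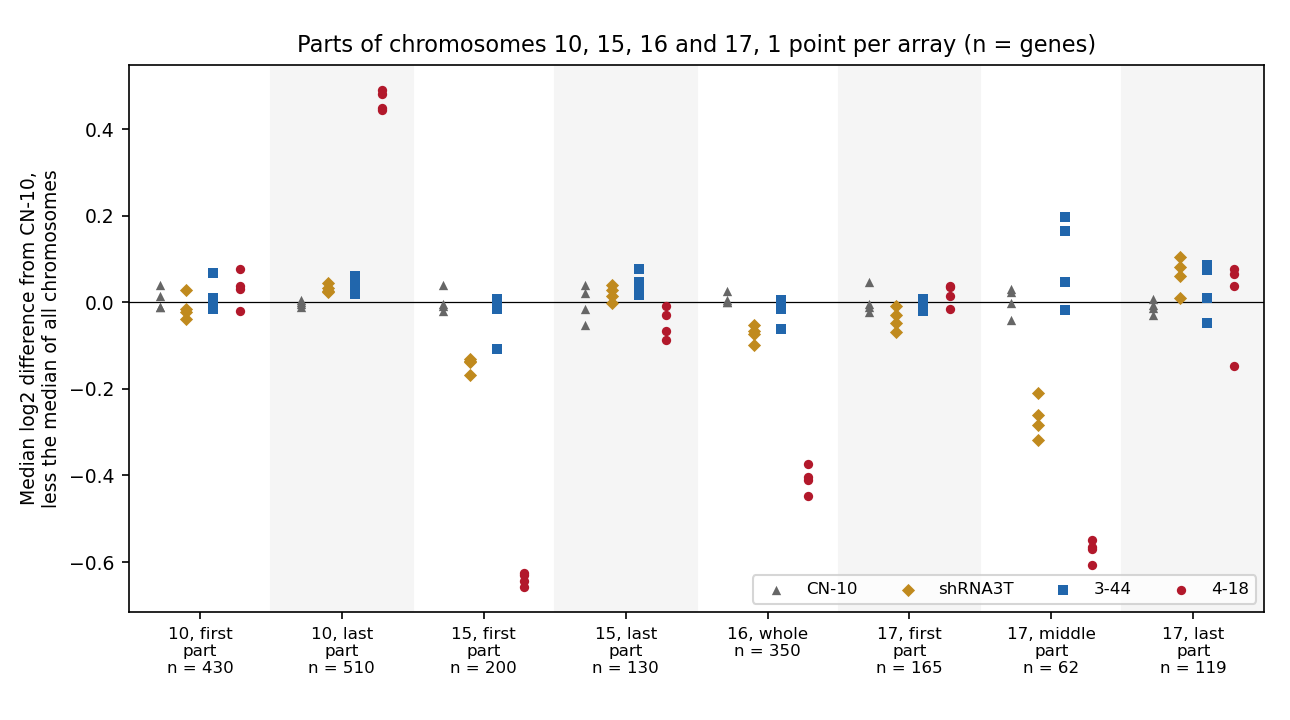
Median log2 level of the genes in parts of chromosomes 10, 15, 16 and 17 relative to CN-10 and to the median of all chromosomes, one point per array in each of the 4 groups. The arrays of 4-18 lie at 0.44 to 0.49 in the last part of chromosome 10 and at -0.66 to -0.63 in the first part of chromosome 15, apart from the arrays of the other groups.

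Genes of the proteasome, the complex that degrades ubiquitin-tagged proteins, are described by their position. Of its 41 subunit and activator genes 7 fell and none rose (17.1%), while the median was 0.01 and 22 differences were above 0. All 5 members in the first part of chromosome 15 fell. Psmb5, a catalytic subunit of the core, stood at 14.00, 14.17, 13.77 and 13.63 in 4-18 and at 15.89, 15.48, 15.68 and 15.56 in 3-44 (-1.76, SE 0.14, adjusted p = 0.00016 in limma). The activator genes Psme1 (-1.46) and Psme2 (-1.25) and the regulatory subunit genes Psmd6 (-1.29) and Psmc6 (-1.06) were the others, and Psmc6 ranged from -1.21 to -0.83 with single arrays left out and lost its call in each of these 8 fits.

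The 6 proteasome genes beyond 60 Mb of chromosome 10 all had differences above 0, none of them called, and 2 of them, Psme3 and Psmd12, were below 0 with median centring and in the deposited values without scaling. With single arrays left out Psmb3 ranged from 0.72 to 1.06 and was called higher in 5 of the 8 fits, Psmd11 ranged from 0.86 to 1.12 and was called in 3, and Psmd3 ranged from 0.79 to 1.00 and was called in 1. The differences were those of Psmd11 (0.99), Psmb3 (0.97), Psmd3 (0.89), Psmc5 (0.65), Psme3 (0.28) and Psmd12 (0.18). Psmd11, a lid subunit, was at 10.06, 9.71, 9.55 and 9.27 in 4-18 and at 9.05, 8.63, 8.55 and 8.39 in 3-44, without overlap. Of the 30 members elsewhere 2 fell, Psmd9 (-1.07) and Psmb10 (-1.01), and their median was 0.01. Psmd9 was not called without replicate 1 of either clone (-0.94 at the least), nor Psmb10 without replicate 1 of 3-44 or replicate 2 of 4-18 (-0.90). With single arrays left out 5 or 6 of the 41 were called lower and 0 to 2 higher. By contrast all 14 cell cycle genes that fell lie outside the 4 stretches, and so do 9 of the 12 hepatocyte genes that fell, 2 more having no position in the files.

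**Figure D5:**
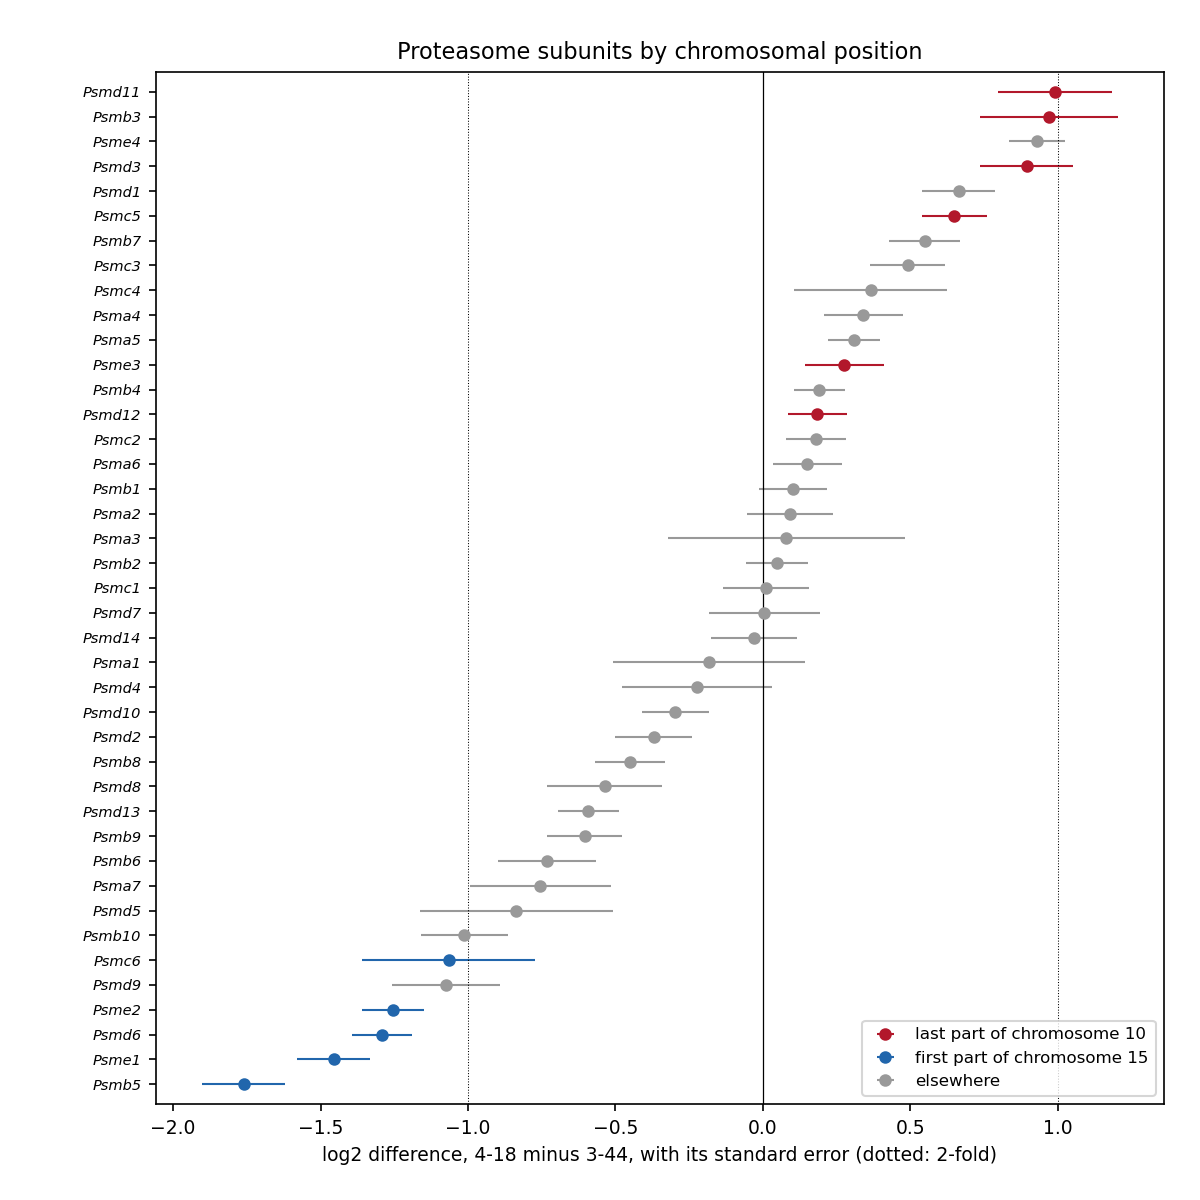
Log2 difference between 4-18 and 3-44 (with its standard error) for the 41 proteasome genes, ordered by value and coloured by position. The 5 genes of the first part of chromosome 15 lie between -1.76 and -1.06 and the 6 genes of the last part of chromosome 10 between 0.18 and 0.99 in the quantile-normalized values, where Psme3 and Psmd12 turn negative with median centring or without scaling.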

How the data were processed

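Gene expression was measured with one-color Agilent rat arrays, 1 per sample, and the sample labels gave each group and replicate number. The authors hybridized and scanned the arrays with Feature Extraction 10.7.3.1 (file header) and deposited linear intensity values of spots and local background, not normalized, and a processed signal of intensity units that was not scaled between arrays. The deposited series table holds log2 values that equalled the normexp-corrected median signal without scaling (largest difference 4e-11). The submitters' processing notes name limma.

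With R 4.3.3 and limma 3.58.1, background was corrected by normexp (offset 50), log2 values of the 16 arrays were quantile normalized, spots flagged as outliers were removed and spots were averaged per probe. One mean per clone was fitted to the 8 arrays of 4-18 and 3-44, with empirical Bayes moderation and Benjamini-Hochberg adjustment over 30360 probes. The steps were tested on simulated data. Single values were also tested by exact two-sided permutation of the 8 arrays. A gene is shown by its brightest probe, and a probe counted as well above background on an array by the flags of the scanner software. Where it was so on no array of a clone, a bound on the fold is given, taken per array from the dimmest probe that was above background, or from the probe itself where that was brighter. The number of arrays limits the precision.

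The members and the 36 lists were chosen with earlier results of these data known. Named by rule were Pdrg1, Mat1a, Mat2a and Mat2b, the 12 most raised and the 12 most lowered of the called genes whose clones did not overlap, and up to 4 called members of each list. Other called members and the genes of the chromosome stretches were named after their values had been seen. Of 30367 probes 21219 matched the gene table at hand, and symbols are given as in the array files. Positions are those of the files (rn4), and without an annotation of rn4 the exon or untranslated region of a probe is not given. Promoters are RefSeq sequences of GRCr8. Alternatives covered the signal used, background, scaling, flags, filters, fit, replicate block, thresholds and leaving out arrays. Results of 2 of the called list members are not reported here.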

Additional observations from a re-analysis of the deposited data

Results flagged for a closer look

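Among the 4 arrays of a clone, an array was singled out for a gene when its distance to the nearest of the other 3 exceeded the critical share of the whole range in Dixon's test, which chance alone does in about 1 in 20 groups. The named genes gave 426 groups of a gene and a clone. Groups with a flagged array, such as Mat2b in 3-44, were skipped, so fewer than 426 were examined, and 32 were singled out. Replicate 1 of 3-44 accounted for 19 of them and replicate 1 of 4-18 for 6. Values below are normalized log2 intensities, each given beside the range of the other 3 arrays.

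Replicate 1 of 3-44 was low for Pdrg1 (11.89 against 12.86 to 12.95), Mat1a (10.58 against 11.87 to 12.13), Cxcl1 (10.14 against 10.38 to 10.41), Cxcl2 (7.19 against 8.03 to 8.14), Trim25 (9.98 against 11.83 to 11.89), Lbp (9.82 against 11.04 to 11.13), Serping1 (10.69 against 13.04 to 13.33), Cdh17 (14.07 against 14.93 to 15.06), Aarsd1 (8.69 against 9.37 to 9.43), Alb (15.95 against 17.44 to 17.67) and Psmb3 (13.59 against 14.57 to 14.61). It was high for Serpina6 (9.85 against 9.55 to 9.57), Fbp1 (11.31 against 10.91 to 10.94), Nsd1 (12.65 against 12.26 to 12.27), Tcp1 (15.76 against 15.40 to 15.43), Phlda1 (9.71 against 9.20 to 9.23), Xpo5 (14.64 against 14.27 to 14.30), Mcm2 (13.64 against 13.17 to 13.21) and E2f1 (13.14 against 12.72 to 12.77).

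Replicate 1 of 4-18 was low for Lcp1 (11.92 against 13.27 to 13.41), Pdrg1 (11.57 against 13.25 to 13.34) and Gckr (10.49 against 10.94 to 11.02). It was high for Fabp1 (8.22 against 7.90 to 7.94), Fbp1 (12.86 against 12.54 to 12.58) and Onecut1 (13.93 against 13.25 to 13.29). Pdrg1 and Fbp1 were singled out in both clones.

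Replicate 3 of 3-44 stood apart for Pfkm (7.02 against 7.27 to 7.32). Replicate 4 of 3-44 stood apart for Cxcl9 (7.91 against 6.50 to 6.69), Irs2 (12.30 against 12.49 to 12.51) and Cdh5 (8.63 against 7.41 to 7.53). Replicate 2 of 4-18 stood apart for Mcm4 (12.77 against 12.03 to 12.11) and Gpm6a (8.65 against 9.09 to 9.13). Replicate 3 of 4-18 stood apart for Saa4 (7.26 against 7.47 to 7.50). What sets these arrays apart was not tested.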

How the results depend on the processing

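The count of 1323 called gene names ranged from 1072 to 1948 under the alternatives of signal, fit, filter, flags, p-value and left-out arrays other than the following. It was 600 when the normexp-corrected arrays were scaled to their 75th percentile, 2293 with median centring, 872 in the deposited values without scaling, 3248 with a 1.5-fold limit and 4404 with no fold limit. With single arrays left out it was 1193 to 1441. Same-numbered arrays of the clones deviated together at correlations of 0.313, 0.0835, 0.188 and -0.047 for replicates 1 to 4. Differently numbered arrays did so at -0.226 to 0.123, so the pairs of replicates 1 and 3 exceeded these and those of replicates 2 and 4 did not. With the replicate number as a block 1344 names were called, and the SE of the Pdrg1 difference was 0.158 instead of 0.43. An effect shared by arrays of the same number was not tested. Of the 1323 names, 587 were called in the same direction among the 600, 967 among the 2293 and 617 among the 872. With the processed signal, 902 were among the 1948 called after quantile normalization and 885 among the 1725 called after scaling to the 75th percentile.

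The Pdrg1 difference turned to -0.30 with median centring, to -0.41 in the deposited values without scaling and to -0.0301 without replicate 1 of 3-44, and ranged from -0.0301 to 0.66 with single arrays left out. Of 212 other named genes 193 were called, and all 193 kept their sign under each of the 24 alternatives of values and fit in which they had a value. Of the 161 with a value under all 24, 70 kept their call in each, and of the 32 left out of 1 or more, 11 kept it wherever measured. Among those not called, Alb turned to -0.088 with the processed signal and quantile normalization, -0.25 with median centring, -0.34 without scaling, -0.0842 with array weights and -0.0435 without replicate 1 of both clones, and ranged from -0.231 to 0.356 with single arrays left out. Afp turned to 0.0867 with array weights and 0.0503 without replicate 1 of both clones, and ranged from -0.146 to 0.0106. Acta2 turned to 0.40 and Cdh5 to 0.54 with the 75th percentile scaling, and Cdh5 to 0.0442 with median centring, with a range from -0.347 to 0.11 when single arrays were left out. Psmd12 turned to -0.33 and Psme3 to -0.21 with median centring, and to -0.44 and -0.32 without scaling. The causes were not tested.

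Limits of depth apply to 26 called probes not well above background in 4-18 and 24 in 3-44, whose folds are bounds, and to 4-18 as the dimmer clone.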
